A study of Mus musculus with 8 samples.

Results

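The clustered replication histone genes supply the histone proteins that package new DNA during S phase. They were taken here as all genes whose symbol begins with Hist1h, Hist2h, Hist3h or Hist4h and that have a protein-coding transcript in the deposited tables. The rule found 68 of 48440 genes: 6 for the linker histone H1, 19 for H2A, 18 for H2B, 12 for H3 and 13 for H4. By symbol, 55 belong to the Hist1 cluster, 10 to Hist2, 2 to Hist3 and 1 to Hist4. On GRCm38, GENCODE M21 placed 53 of the Hist1 genes on chromosome 13, the 10 Hist2 genes within chr3:96219865-96270132, the 2 Hist3 genes within chr11:58948920-58956830 and the Hist4 gene at chr6:136801553-136804415.

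Stranded paired-end RNA sequencing covered 4 groups of mouse cells, with 2 libraries each, and the labels name no strain, age, cell line or genetic change. MII oocytes are arrested at metaphase of the second meiotic division. GV oocytes, with an intact germinal vesicle, were held before the first division with 2 µM milrinone. Their donors received 5 units of PMSG 48 h ahead of an unnamed injection. The label of the MII oocytes repeats the GV protocol and gives no maturation step. EpiC are in vitro epiblast cells, made from embryonic stem cells that were plated for 24 h and collected about 56 h after LIF and 2i were withdrawn. ESC are embryonic stem cells held in 15% serum plus LIF and 2i, which is the pair PD0325901 and CHIR99021. The number of oocytes per library is not stated, nor is the origin of the replicates in different animals or cultures, so p-values speak for the spread among these libraries, which may be technical.

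Messages of the replication histones are unusual in animal cells because most end in a short stem-loop and not in a poly(A) tail. The stem-loop binding protein SLBP and the U7 small nuclear RNP direct the cut behind the stem-loop, and the messages are made in S phase and degraded when DNA synthesis stops. Some of these genes can also give transcripts that run past the stem-loop to a polyadenylation site, mostly in cells that no longer divide. A growing oocyte does not replicate its DNA but stores histone messages and SLBP for the embryo, and also uses germline forms of the histones that are not tied to S phase.

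The stem-loop is shown first because it sets these messages apart, and because a library made through poly(A) would hold few of them. In GENCODE M21 transcripts that matched the deposited models, 27 genes carried a 16-base run with a 6-base stem that begins with GG, its complement, and a 4-base loop that begins with TTT. The stem and loop are in capitals, with flanking bases in lower case, and the transcript's U is written as T.
Hist1h1c: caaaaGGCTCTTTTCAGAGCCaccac
Hist1h2ap: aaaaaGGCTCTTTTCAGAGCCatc
Hist3h2ba: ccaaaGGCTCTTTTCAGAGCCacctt
Hist1h2bk: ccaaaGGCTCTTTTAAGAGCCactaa
Hist2h3c1: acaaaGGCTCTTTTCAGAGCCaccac
Hist1h4i: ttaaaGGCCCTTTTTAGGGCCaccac
Hist1h4j: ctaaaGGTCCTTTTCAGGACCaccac
The form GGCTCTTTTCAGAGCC stood in 16 of the 27 genes, in H1, H2A, H2B and H3 genes alike. Hist1h2bk and Hist1h3e carried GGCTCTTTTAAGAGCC, and Hist2h2ac carried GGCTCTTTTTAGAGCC. The H4 genes had forms of their own, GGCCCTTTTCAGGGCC in 4 genes, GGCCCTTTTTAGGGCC in 2 and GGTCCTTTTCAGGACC in 2. The models of 17 genes ended close behind the stem-loop, as that of Hist1h2ap, which ended 3 bases after it. The models of 10 genes ran on, as those of Hist1h1c by 840 bases, Hist3h2ba by 169, Hist1h4i by 330 and Hist2h3c1 by 1162. No such run was found in the models of 19 genes, and the models of 22 genes could not be matched to a transcript of the same length.

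Total estimated counts per library were 47463546 to 196788239, and the 68 genes together held 0.0019% to 0.0149% of them. Replicate 2 of every group was the deeper library and held more counts of Gm42418, a gene model over ribosomal RNA sequence, with 22.7% of counts in EpiC replicate 2 and 14.7% in ESC replicate 2, against at most 0.151% in any replicate 1 library. The summed TPM of 7 oocyte markers was 24126 to 34515 in the oocyte libraries and 1.65 to 11.7 in the cultured cells, where Oosp1 was listed at 0. Markers of cumulus and granulosa cells, which surround the oocyte, summed to 49.1 and 48.0 TPM in MII, 31.3 and 164 TPM in GV, 38.2 and 24.5 TPM in EpiC, and 14.2 and 13.3 TPM in ESC; their part in the results was not tested. Fold changes are from edgeR on counts scaled by TMM, whose factors were 0.405 and 0.422 in MII and 1.07 to 1.58 elsewhere. They are therefore higher for MII against another group than the ratio of the TPM printed beside them, and describe a gene relative to the bulk of mRNAs. In bulk RNA, fewer cells with a message and less of it per cell cannot be told apart.

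The histone genes as a whole were a small and uneven part of each library. Most of their messages lack a poly(A) tail, so a share of a library need not be a share of the RNA in the cells. That share was not tested. TPM is a transcript's share of the library per unit length. The 68 genes summed to 63.3 and 69.8 TPM in the MII libraries, 224 and 286 TPM in GV, 152 and 486 TPM in EpiC, and 71.3 and 206 TPM in ESC. MII was lowest without overlap with any group, GV was above ESC, and EpiC overlapped both GV and ESC. Of the 68 genes, 39 and 35 were listed at 0 in the MII libraries, 31 and 12 in GV, 5 and 1 in EpiC, and 13 and 1 in ESC. At least 1 TPM was reached by 9 and 9 genes in MII, 19 and 19 in GV, 35 and 59 in EpiC, and 23 and 47 in ESC.

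**Figure D1:**
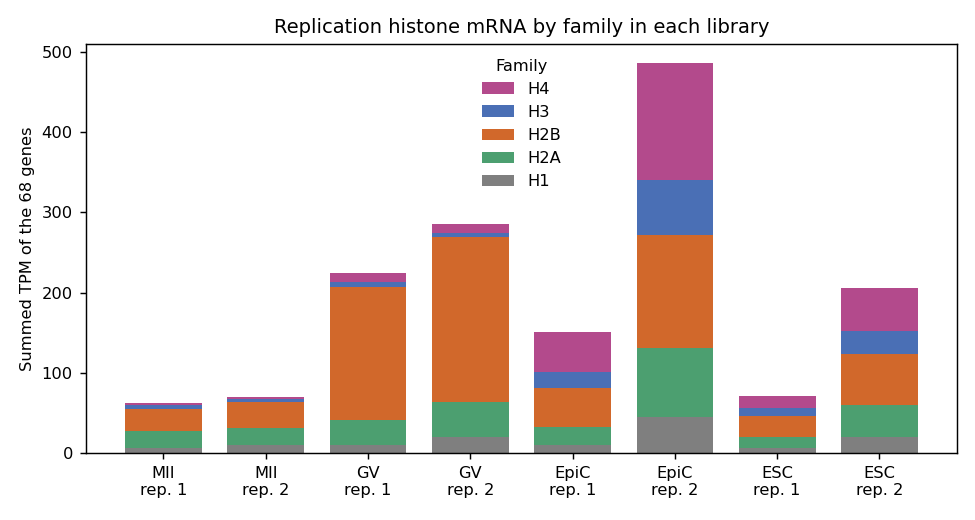
Summed TPM of the H1, H2A, H2B, H3 and H4 genes in each of the 8 libraries, stacked by family, with the libraries of MII, GV, EpiC and ESC from left to right. H2B makes up most of the GV bars (165 and 205 TPM), and replicate 2 stands well above replicate 1 in EpiC and ESC.

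The oocyte pool was held by a few genes. The 5 highest genes held 81.9% and 83.3% of the summed histone TPM in MII and 85.1% and 84.7% in GV, against 41.7% and 26.8% in EpiC and 35.9% and 24.2% in ESC. Hist1h2bc alone, which encodes a common H2B protein, held 64.0% and 58.6% of the GV sum. Hist1h2bc, Hist1h2aa, Hist3h2ba and Hist1h1a were among the 5 highest genes in all 4 oocyte libraries. In the cultured cells the highest gene was Hist1h4i, an H4 gene, in each library, and Hist1h2bk, an H2B gene, was among the 5 highest in each.

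By family, the H2B genes summed to 26.7 and 32.6 TPM in MII, 165 and 205 TPM in GV, 49.3 and 140.04 TPM in EpiC, and 25.6 and 64.2 TPM in ESC. GV was above every other library, and Hist1h2bc alone held 86.9% and 81.5% of the H2B sum in GV. Of the 18 H2B genes, 3 were called higher and 8 lower in GV than in ESC, as given below. H2B rose by 2.98 ± 0.59 on the log2 scale in GV against ESC (SE, n = 2 libraries each; adjusted p = 0.00232, edgeR's quasi-likelihood test on summed counts with Benjamini-Hochberg adjustment over all rows), and its change in MII against EpiC was 0.25 ± 0.55 (adjusted p = 0.696). The H4 genes summed to 2.53 and 2.43 TPM in MII, 10.9 and 10.5 TPM in GV, 50.4 and 145 TPM in EpiC, and 14.7 and 53.2 TPM in ESC. MII was lowest, GV came next, and both lay below the cultured groups, which overlapped each other. H4 fell by 3.22 ± 0.73 on the log2 scale in MII against EpiC (adjusted p = 0.00365). In GV against ESC the H4 change was -0.07 ± 0.66 (adjusted p = 0.932) and did not pass. Hist4h4, with a long model of 2863 bases, gave 409 of 645 and 558 of 1164 estimated H4 counts in GV. Summed H4 TPM in GV was 0.742 times that in ESC in replicate 1 and 0.198 times in replicate 2. Of 12 H4 genes tested, 6 were called lower in GV. The test of summed counts therefore does not show that H4 stayed level.

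The H2A genes summed to 20.8 and 21.1 TPM in MII, 31.3 and 43.8 TPM in GV, 22.2 and 86.3 TPM in EpiC, and 14.0 and 39.0 TPM in ESC. The H3 genes summed to 5.97 and 3.66 TPM in MII, 6.54 and 5.22 TPM in GV, 19.2 and 69.0 TPM in EpiC, and 10.6 and 29.0 TPM in ESC. The H1 genes summed to 7.28 and 10.1 TPM in MII, 10.4 and 20.7 TPM in GV, 10.4 and 45.3 TPM in EpiC, and 6.46 and 20.9 TPM in ESC. H3 was lower in all 4 oocyte libraries than in all 4 cultured ones, whereas H1 and H2A overlapped between oocytes and cultured cells. No test of the summed H1, H2A or H3 counts passed the threshold in GV against ESC (adjusted p = 0.441, 0.229 and 0.749) or in MII against EpiC (adjusted p = 0.842, 0.607 and 0.981). Under limma on log2(TPM + 1), H3 passed in MII against EpiC, at -2.72 (adjusted p = 0.0107). The sum hides members that moved in opposite directions, which are given gene by gene below. Counts were summed whatever the length of the model, so long models weigh more. In MII, Hist2h3c1 gave 312 of 354 and 455 of 554 estimated H3 counts. Its model has 1820 bases, and all of its sequence is shared with Gm20634. The H3 tests that involve MII therefore rest largely on this model.

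**Figure D2:**
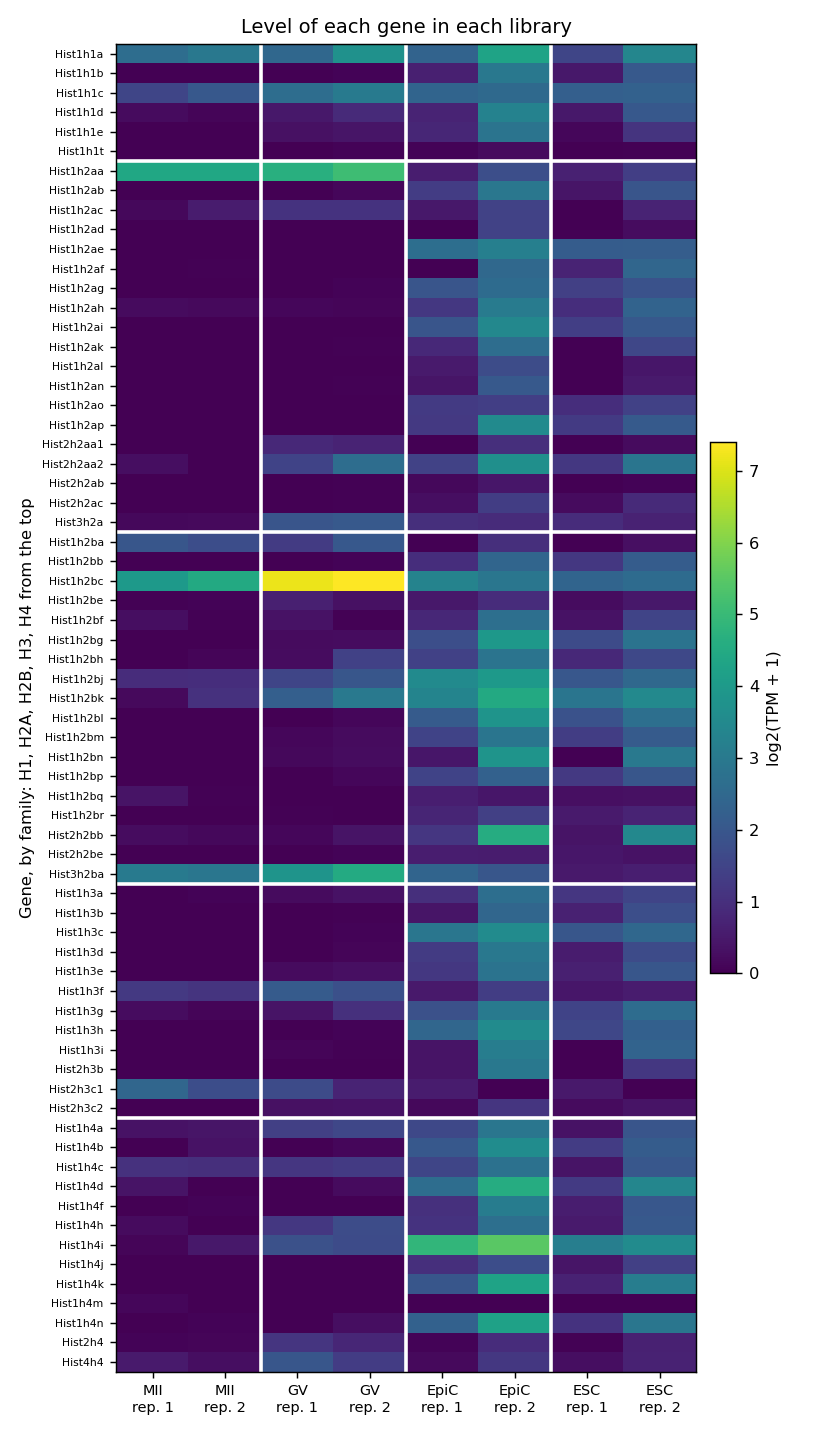
Heat map of log2(TPM + 1) for the 68 genes (rows, by family) in the 8 libraries (columns, MII, GV, EpiC and ESC). In the oocyte columns most rows are at or near 0 and a few, such as Hist1h2bc and Hist1h2aa, stand out; in the cultured cells most rows carry a low level that is brighter in replicate 2.

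The replicates of the cultured cells differed more in these genes than in others. Among genes with at least 10 counts in both libraries of a group, the median ratio of replicate 2 to replicate 1 TPM was 0.912 over 11 histone genes in MII, 1.17 over 23 in GV, 3.47 over 43 in EpiC and 1.94 over 31 in ESC. Over all protein-coding genes the same median was 1.08, 0.954, 0.804 and 0.974 in that order of groups. In EpiC, 31 of the 43 histone genes had a ratio above 2, and in ESC 15 of 31. Genes with models under 700 bases had a median ratio of 3.63 in EpiC and 2.19 in ESC, and those of at least 700 bases 2.32 in EpiC and 1.28 in ESC.

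Most RNAs that are made without a poly(A) tail were also higher in replicate 2 of the cultured cells, by unequal amounts. Of 15 such RNAs listed, 15 were higher in replicate 2 of EpiC and 14 in replicate 2 of ESC, against 8 in MII and 12 in GV. Where replicate 1 was above 0, the median ratio of replicate 2 to replicate 1 TPM was 1.05 in MII, 1.62 in GV, 3.97 in EpiC and 4.86 in ESC, with a range of 1.29 to 798 in EpiC and 0.704 to 454 in ESC. Rn7sk, the RNA of the 7SK complex, had 25.9 and 31.2 TPM in MII, 7.06 and 14.3 TPM in GV, 7.99 and 381 TPM in EpiC, and 6.61 and 181 TPM in ESC. Rmrp, the RNA of RNase MRP, had 0 and 0.0653 TPM in MII, 0 and 0.167 TPM in GV, 1.24 and 84.8 TPM in EpiC, and 2.74 and 40.8 TPM in ESC. These 2 stood far higher in replicate 2 of the cultured cells, whereas Snora73a had 64.6 and 114 TPM in EpiC and 67.5 and 120 TPM in ESC. Of 12 such RNAs tested, 0 were higher and 5 lower in GV than in ESC (Rmrp, Rpph1, Snora73a, Snora73b and Terc), where 28.3% of all 25045 genes tested were higher and 31.3% lower. In MII against EpiC 0 were higher and the same 5 lower, where 28.5% of all genes were higher and 39.6% lower. The 5 of 12 are 41.7%, which is near the share of all genes lower in MII. The numbers higher and lower were the same at an unadjusted p under 0.05 in edgeR and in DESeq2. The labels do not say if poly(A) selection was used, and the part of such RNA in the histone results was not tested. All comparisons were also read within each replicate number, where a library of one group meets the library of the other group with the same number. Same-numbered libraries were not alike in such RNA. In replicate 2, Gm42418 held 3.03% of counts in MII, 1.66% in GV, 22.7% in EpiC and 14.7% in ESC. This reading therefore does not remove the difference in such RNA between groups.

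**Figure D3:**
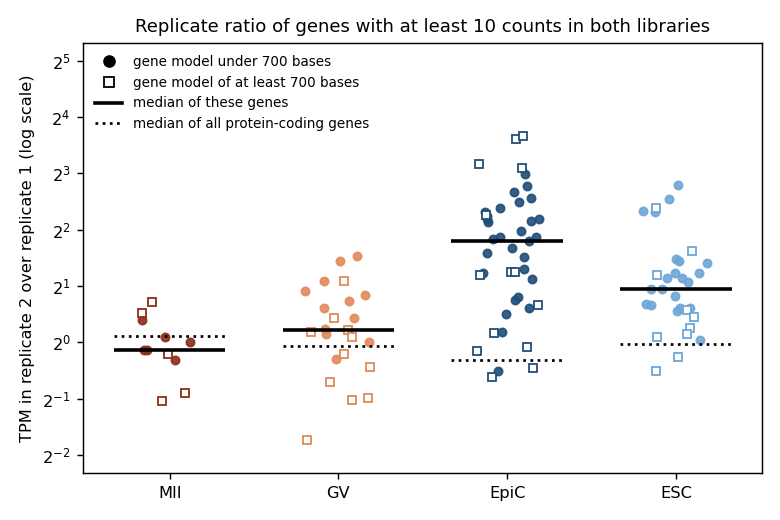
Ratio of replicate 2 to replicate 1 TPM (log axis) for the histone genes with at least 10 counts in both libraries of MII, GV, EpiC and ESC, 1 point per gene. The median of the histone genes (solid line) lies at 3.47 in EpiC and 1.94 in ESC, above the median of all protein-coding genes (dotted line, 0.804 and 0.974).

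Coding sequences within a family are nearly alike, so kallisto had to divide reads among genes. Of the 31-base words in the transcripts of a gene, a median of 37.6% were found in no other listed gene (66 genes with sequence), and 40 genes had under 50% of their own. The median was 96.2% for H1, 20.2% for H2A, 39.0% for H2B, 36.9% for H3 and 52.1% for H4. Hist1h2bc had 66.5% of its own, Hist1h2aa 71.7%, Hist3h2ba 62.8% and Hist1h4i 64.4%, whereas Hist1h2bq had 1.74%, since it shares 98.3% with Hist1h2br. Hist2h2aa1, Hist2h2aa2, Hist2h2bb, Hist2h3b and Hist2h3c1 had no word of their own, because models such as Gm20634 and Gm20633 cover them, and their values are uncertain. Annotated genes overlap 7 of the members on the same strand and 22 on the other strand, and the labels do not say if the counting used strand.

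GV oocytes against ESC set arrested oocytes against cycling cells before either change of state. Of 62 genes tested, 6 were higher in GV, or 9.7%, where 28.3% of all 25045 genes tested were higher, and 27 were lower, or 43.5%, where 31.3% of all genes were lower. The 27 lower genes were 1 of 5 tested H1 genes, 8 of 15 H2A, 8 of 18 H2B, 4 of 12 H3 and 6 of 12 H4, and the 6 higher were 2 H2A, 3 H2B and 1 H3 gene. The median log2 fold change of the 62 genes was -3.92, against -0.51 over all genes, and it was -3.02 with the 9 genes that had 0 counts in a whole group set to their bounds. Each of the 6 higher and 27 lower genes also had that direction in both replicate numbers. The calls were made on these same libraries, so this adds no separate support.

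The H2B gene Hist1h2bc, at chr13:23684199-23692908 on the plus strand, had 144 and 167 TPM in GV and 4.20 and 5.03 TPM in ESC. Every GV library was far above every ESC library. It rose by 5.40 ± 0.46 on the log2 scale (adjusted p = 2.54e-05, edgeR's quasi-likelihood test with Benjamini-Hochberg adjustment, as for every gene below). Hist3h2ba, an H2B gene of the small cluster on chromosome 11 (chr11:58948920-58949533, plus strand), had 13.1 and 21.8 TPM in GV and 0.428 and 0.532 TPM in ESC. It rose by 5.48 ± 0.66 (adjusted p = 0.000146). Hist1h2aa, which encodes TH2A, an H2A form known from testis and oocyte, had 24.6 and 33.3 TPM in GV and 0.603 and 1.59 TPM in ESC. It rose by 4.97 ± 0.92 (adjusted p = 0.00163). These 3 genes kept their call under every alternative setting tried.

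The other higher genes were less stable. Hist1h2ba, which encodes TH2B, the H2B partner of TH2A, had 1.45 and 3.09 TPM in GV and 0 and 0.227 TPM in ESC. The 2 groups did not overlap, and the gene rose by 4.14 ± 1.48 (adjusted p = 0.0366). The call was lost without GV replicate 2, at 3.40, or without ESC replicate 1, at 3.52. Without ESC replicate 2 the remaining ESC library had 0 counts, and the fitted value of 8.14 there depends on the prior count. Hist1h3f, an H3 gene, had 3.33 and 2.46 TPM in GV and 0.360 and 0.489 TPM in ESC, and rose by 3.04 ± 0.85 (adjusted p = 0.0126), a call lost at 2.82 without ESC replicate 1. Hist3h2a, the H2A gene next to Hist3h2ba, had 2.85 and 3.22 TPM in GV and 0.915 and 0.643 TPM in ESC, and rose by 2.30 ± 0.58 (adjusted p = 0.0081), a call lost at 2.09 without ESC replicate 2. Its model overlaps Trim17 on the same strand and shares 32.1% of its words.

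The genes lower in GV were near or at 0 there. The H2A gene Hist1h2ae was listed at 0 in both GV libraries and had 3.45 and 3.57 TPM in ESC. With 3 counts per GV library as the floor it was at least 22.0-fold lower (adjusted p = 0.00127). The H3 gene Hist1h3c had 0 and 0.0543 TPM in GV and 2.94 and 4.51 TPM in ESC, and fell by 5.98 ± 1.15 on the log2 scale (adjusted p = 0.00256). The H2A genes Hist1h2ap, Hist1h2ai and Hist1h2ao were listed at 0 in both GV libraries and at 0.963 to 3.28 TPM in ESC, so that they were at least 15.8-fold, 11.7-fold and 8.98-fold lower. Hist1h4k, an H4 gene with 0 in both GV libraries and 0.622 and 7.76 TPM in ESC, was at least 14.5-fold lower (adjusted p = 0.017), and Hist1h2af, an H2A gene with 0 and 0 TPM in GV and 0.679 and 4.44 TPM in ESC, at least 13.3-fold lower (adjusted p = 0.0295).

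The number of lower genes depended on single libraries and on the test. It was 15 under limma on log2(TPM + 1). In edgeR it was 7 without GV replicate 1 and 11 without GV replicate 2 or without ESC replicate 2, and 5 of the 27 genes kept their call under every alternative setting. Of the genes named here, Hist1h2ap lost its call without GV replicate 2, and Hist1h2af and Hist1h4k without GV replicate 1, GV replicate 2 or ESC replicate 2. Under limma on log2(TPM + 1) Hist1h2ap, Hist1h2af and Hist1h4k also lost it (adjusted p = 0.073, 0.141 and 0.118). Hist1h2af lost it under limma on log2(TPM + 0.1) as well (adjusted p = 0.0632).

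Not all H4 genes passed the test in GV against ESC. Hist1h4i, at chr13:22040636-22041362 on the minus strand, had 2.55 and 2.21 TPM in GV and 7.98 and 10.9 TPM in ESC. GV was lower without overlap, but the log2 fold change of -1.68 ± 0.69 did not pass (adjusted p = 0.0612). Hist4h4, the H4 gene outside the large clusters, had 2.96 and 1.48 TPM in GV and 0.206 and 0.638 TPM in ESC, with a log2 fold change of 2.65 ± 1.08 (adjusted p = 0.0578). Hist2h2be, an H2B gene known for polyadenylated transcripts, had 0.0079 and 0.0616 TPM in GV and 0.352 and 0.292 TPM in ESC. It fell by 2.72 ± 0.96 (adjusted p = 0.0345). The call was lost without GV replicate 1, at -1.72, without either ESC library, at -2.63 and -2.80, and without either MII library, at -2.45 and -2.46. It was also lost in edgeR with no count filter, at -2.44 (adjusted p = 0.0565).

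**Figure D4:**
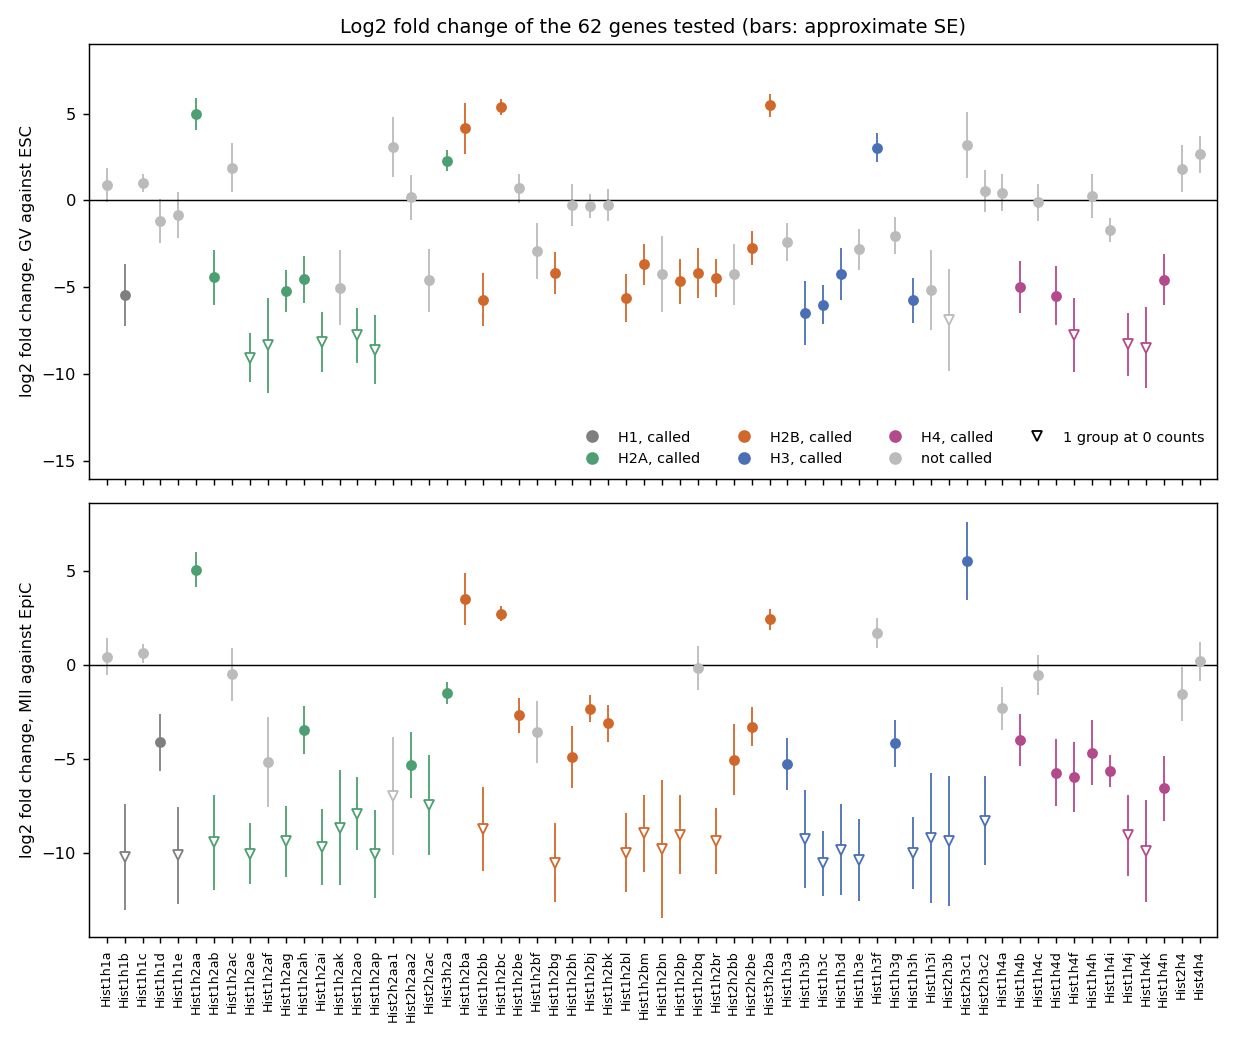
Log2 fold change with its SE for the 62 tested genes, grouped by family, for GV against ESC (top) and MII against EpiC (bottom). Grey points were not called, and open triangles mark genes with 0 counts in a whole group, whose fitted value is no estimate of size; most called genes lie below 0, and Hist1h2bc, Hist1h2aa, Hist1h2ba and Hist3h2ba lie above 0 in both panels.

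MII oocytes against EpiC set the later state of each lineage side by side. Of the 62 genes, 5 were higher in MII, or 8.1%, where 28.5% of all genes were, and 45 were lower, or 72.6%, where 39.6% of all genes were. The lower genes were 3 of 5 H1 genes, 11 of 15 H2A, 13 of 18 H2B, 10 of 12 H3 and 8 of 12 H4. The median log2 fold change of the 62 genes was -5.69, against -1.23 over all genes, and -3.38 with the 28 genes at 0 counts in a whole group set to their bounds. All 50 called genes had their direction in both replicate numbers, which is no separate support because the calls used these same libraries. This comparison shares no library with GV against ESC, but both come from the same fit and its shared estimate of the spread. The 2 sets had 4 higher genes in common, Hist1h2aa, Hist1h2ba, Hist1h2bc and Hist3h2ba (66.7% of 6 and 80% of 5). They had 25 lower genes in common (92.6% of 27 and 55.6% of 45). With 72.6% of the tested genes lower in MII, a large overlap of lower genes was likely in any case. The overlap over all genes was not counted, so neither the higher nor the lower overlap can be read as particular to these genes.

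Hist1h2aa had 20.2 and 20.3 TPM in MII and 0.513 and 2.40 TPM in EpiC. It rose by 5.07 ± 0.93 on the log2 scale (adjusted p = 0.00111). Hist1h2bc had 14.8 and 21.4 TPM in MII and 8.88 and 6.50 TPM in EpiC, and rose by 2.73 ± 0.41 (adjusted p = 0.000347). Both genes were higher in each MII library than in each EpiC library and kept their call under every alternative setting. Hist3h2ba had 7.13 and 6.48 TPM in MII and 4.17 and 2.91 TPM in EpiC, and rose by 2.42 ± 0.56 (adjusted p = 0.00437). In limma on log2(TPM + 0.1) its change was 0.94 (adjusted p = 0.0596). Hist1h2ba had 2.94 and 2.36 TPM in MII and 0 and 1.01 TPM in EpiC, and rose by 3.52 ± 1.39 (adjusted p = 0.0462). The call was lost without GV replicate 1 (3.73), GV replicate 2 (3.54), MII replicate 1 (3.69), MII replicate 2 (3.79) or EpiC replicate 1 (2.65). It was also lost with a length offset (3.54) and with protein-coding rows only (3.23). The same held with the scale from protein-coding genes without Gm42418 and mitochondrial genes (3.31). The H3 gene Hist2h3c1 had 4.43 and 2.38 TPM in MII and 0.476 and 0.0017 TPM in EpiC, and rose by 5.51 ± 2.08 (adjusted p = 0.0394). All words of its model are shared with Gm20634. The call was lost without MII replicate 1, at 5.23, without MII replicate 2, at 6.04, without EpiC replicate 2, at 4.42, and without GV replicate 2, at 5.52. It was also lost in DESeq2, at 5.57 (adjusted p = 0.0804).

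The lower genes came from all 5 families. Hist1h4i had 0.0827 and 0.396 TPM in MII and 28.1 and 44.5 TPM in EpiC, the highest level of any of the 68 genes in EpiC. It fell by 5.64 ± 0.84 on the log2 scale (adjusted p = 0.000335). Hist1h3c was listed at 0 in both MII libraries and had 6.54 and 10.9 TPM in EpiC, so that it was at least 23.6-fold lower (adjusted p = 0.000875). The H2B gene Hist1h2bg, with 0 in both MII libraries and 2.42 and 14.3 TPM in EpiC, was at least 23.1-fold lower (adjusted p = 0.00237), and the H3 gene Hist1h3e, with 0 in both MII libraries and 1.28 and 6.09 TPM in EpiC, at least 21.0-fold lower (adjusted p = 0.00329). The H2A gene Hist1h2ap was at least 16.8-fold lower (adjusted p = 0.00682).

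Some H2B genes kept a low level in MII. Hist1h2bk had 0.148 and 1.08 TPM in MII and 9.09 and 21.3 TPM in EpiC, and fell by 3.12 ± 0.99 (adjusted p = 0.0203). Hist1h2bj had 0.908 and 0.969 TPM in MII and 10.6 and 15.1 TPM in EpiC, and fell by 2.33 ± 0.71 (adjusted p = 0.0164). The libraries of MII and EpiC did not overlap in either gene. Both calls were lost without MII replicate 1 (-2.17 and -2.02) and without EpiC replicate 2 (-2.07 and -1.81), and that of Hist1h2bj also without MII replicate 2 (-2.26). The count of lower genes was 26 without MII replicate 1, 17 without MII replicate 2 and 22 without EpiC replicate 2.

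**Figure D5:**
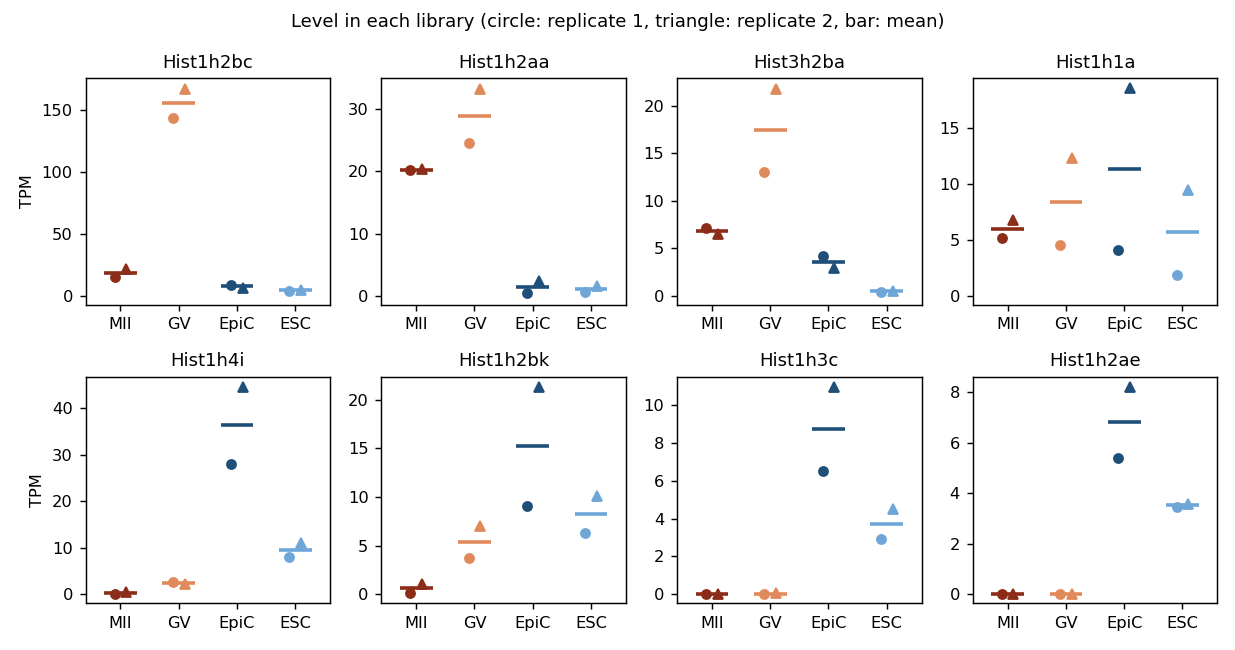
TPM of 8 histone genes in each library (circles replicate 1, triangles replicate 2, bars the group mean), with MII, GV, EpiC and ESC from left to right. Hist1h2bc peaks in GV at 144 and 167 TPM, Hist1h2aa is near 20 TPM or above in both oocyte groups, and Hist1h4i peaks in EpiC at 28.1 and 44.5 TPM.

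MII against GV oocytes follows the last steps before fertilisation, when transcription is silent and stored mRNA is lost or kept. Of the 62 genes, 1 was higher in MII, or 1.6%, where 17.4% of all genes were, and 3 were lower, or 4.8%, where 22.2% of all genes were. The median log2 fold change was -1.65, against -0.53 over all genes. With the 23 genes at 0 counts in a whole group set to their bounds it was 0; genes whose mean in the other group was also at or under the floor of 3 counts per library have no bound and were set to 0. At an unadjusted p under 0.05, 1 gene was higher and 10 were lower. The number of lower genes rested on the test: it was 7 in DESeq2 and in limma on log2(TPM + 1), 10 in a fit of MII and GV alone, and 11 in limma on log2(TPM + 0.1) and with no count filter.

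Hist1h2bc had 14.8 and 21.4 TPM in MII and 144 and 167 TPM in GV. Hist3h2a had 0.110 and 0.133 TPM in MII and 2.85 and 3.22 TPM in GV. In both genes each MII library was below each GV library. Hist1h2bc fell by 1.93 ± 0.39 on the log2 scale (adjusted p = 0.00394) and Hist3h2a by 3.49 ± 0.62 (adjusted p = 0.00202), and both calls held under every alternative setting. The H3 gene Hist2h3c2 was listed at 0 in both MII libraries and had 0.271 and 0.287 TPM in GV, at least 2.29-fold lower (adjusted p = 0.0477). That call was lost without any single GV, MII or ESC library. It was also lost under limma on log2(TPM + 1) and log2(TPM + 0.1) (adjusted p = 0.414 and 0.076). In edgeR with the scale from protein-coding genes without Gm42418 and mitochondrial genes it was lost too (adjusted p = 0.0531).

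The higher gene was Hist1h2bq, an H2B gene with 0.298 and 0.021 TPM in MII and 0 and 0.0167 TPM in GV. It rose by 4.89 ± 1.47 (adjusted p = 0.0258) on 23.5 and 4.49 estimated counts in MII and 0 and 4.39 in GV. The call was lost without MII replicate 1, at 1.93, and without GV replicate 1 or 2. It was also lost under limma on log2(TPM + 1) and log2(TPM + 0.1) (adjusted p = 0.316 and 0.183). The oocyte-high genes Hist1h2aa, Hist1h2ba and Hist3h2ba were not among the called ones. Hist1h2aa had 20.2 and 20.3 TPM in MII and 24.6 and 33.3 TPM in GV. The summed H2B counts fell by 1.59 ± 0.56 in MII against GV (adjusted p = 0.0491), a call lost without any single MII or GV library, at -1.39 to -1.90.

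EpiC against ESC follows the cells out of naive culture. Of the 62 genes, 1 was higher in EpiC, or 1.6%, where 2.63% of all genes were, and 0 were lower, where 2.83% of all genes were. At an unadjusted p under 0.05, 3 were higher and 0 lower in edgeR, and DESeq2 called 3 higher and 0 lower. The direction was more uniform than the calls. In both replicate numbers, 55 of the 68 genes had a higher TPM in EpiC than in ESC and 0 had a lower one in both. Among the 62 genes tested these were 51 (82.3%) and 0, where 34.2% of all 25045 genes tested were higher in both and 34.7% lower in both. The summed TPM of EpiC was 2.12 times that of ESC in replicate 1 and 2.35 times in replicate 2. Reads are divided among genes of like sequence, so the genes are not separate observations. RNAs without a poly(A) tail also differed between EpiC and ESC. In replicate 2, Rn7sk had 381 TPM in EpiC and 181 TPM in ESC, whereas Snora73a had 114 and 120 TPM. In replicate 1 they had 7.99 and 6.61 TPM, and 64.6 and 67.5 TPM. The part of such RNA in the direction was not tested. The libraries of EpiC were all above those of ESC for 15 of the 68 genes, or 12 of the 62 tested (19.4%), which is near the 21.6% of all genes tested, and all below for 0, where 22.2% of all genes tested were. The median log2 fold change was 1.17, against 0.03 over all genes.

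The called gene was Hist3h2ba, with 4.17 and 2.91 TPM in EpiC and 0.428 and 0.532 TPM in ESC. It rose by 2.84 ± 0.59 on the log2 scale (adjusted p = 0.0259). The call was lost without any single ESC or EpiC library, at 2.66 to 3.09, and in a fit of ESC and EpiC alone, at 2.88. Hist1h4i had 28.1 and 44.5 TPM in EpiC and 7.98 and 10.9 TPM in ESC. It did not overlap between the groups either, with a log2 fold change of 2.01 ± 0.70 that did not pass (adjusted p = 0.151). The H2A gene Hist1h2ae had 5.40 and 8.19 TPM in EpiC and 3.45 and 3.57 TPM in ESC, and Hist1h3c had 6.54 and 10.9 TPM in EpiC and 2.94 and 4.51 TPM in ESC.

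The change of the oocytes (MII against GV) was also tested against the change of the cultured cells (EpiC against ESC). For this difference, 0 of the 62 genes were higher, where 13.2% of all genes were, and 5 were lower, or 8.1%, where 16.4% of all genes were. At an unadjusted p under 0.05, 0 were higher and 12 lower, and DESeq2 called 0 higher and 9 lower. Hist1h2bc and Hist3h2a, which fell between GV and MII, had a difference of -2.67 ± 0.55 (adjusted p = 0.00703) and -3.79 ± 0.83 (adjusted p = 0.00878). Hist1h4i had a difference of -3.97 ± 1.01 (adjusted p = 0.0172) and Hist3h2ba of -3.06 ± 0.79 (adjusted p = 0.0178). The call of Hist1h4i was lost without ESC replicate 1 (-3.71) or EpiC replicate 2 (-3.36), and that of Hist3h2ba without GV replicate 2 (-2.57), MII replicate 1 (-3.15) or ESC replicate 1 (-2.89). Hist2h3c2, the other called gene, had 0 counts in both MII libraries, and its call was lost without any single library except EpiC replicate 1. It was also lost under limma on log2(TPM + 1) and log2(TPM + 0.1) (adjusted p = 0.209 and 0.0865). The difference was -2.73 ± 0.79 for the summed H2B counts (adjusted p = 0.0288) and -3.15 ± 0.96 for the summed H4 counts (adjusted p = 0.0358). The H2B call was lost without GV replicate 2, MII replicate 1, MII replicate 2, ESC replicate 1 or EpiC replicate 2 (-2.52, -2.61, -2.97, -2.27 and -1.78), and the H4 call without any single library except ESC replicate 2 and EpiC replicate 1 (-2.07 to -3.37).

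Linker histones bind DNA between nucleosomes. Among the replication-dependent ones, Hist1h1a, the H1.1 gene, had 5.20 and 6.83 TPM in MII, 4.54 and 12.3 TPM in GV, 4.11 and 18.6 TPM in EpiC, and 1.90 and 9.46 TPM in ESC. All 4 groups overlapped, and no comparison of it passed. Hist1h1c, the H1.2 gene with the long model shown above, had 1.91 and 3.14 TPM in MII, 5.21 and 7.05 TPM in GV, 4.25 and 4.78 TPM in EpiC, and 3.67 and 3.91 TPM in ESC. Its GV libraries were the highest 2 of the 8, but no comparison passed.

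Hist1h1b, Hist1h1d and Hist1h1e, the genes of H1.5, H1.3 and H1.4, were lower in MII than in EpiC, and of the 3 Hist1h1b alone passed the test in GV against ESC. Hist1h1e had 0 and 0 TPM in MII, 0.264 and 0.337 TPM in GV, 0.730 and 6.25 TPM in EpiC, and 0.0992 and 1.16 TPM in ESC. It was at least 17.7-fold lower in MII than in EpiC (adjusted p = 0.00848), and GV overlapped ESC, with a change of -0.82 ± 1.32 (adjusted p = 0.602). Hist1h1b had 0 and 0 TPM in MII, 0 and 0.0483 TPM in GV, 0.557 and 6.79 TPM in EpiC, and 0.382 and 3.20 TPM in ESC. It was at least 18.6-fold lower in MII than in EpiC (adjusted p = 0.0122), and it fell by 5.44 ± 1.79 in GV against ESC (adjusted p = 0.0295).

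Hist1h1d had 0.164 and 0.0729 TPM in MII, 0.396 and 0.843 TPM in GV, 0.683 and 8.69 TPM in EpiC, and 0.404 and 3.10 TPM in ESC. It fell by 4.13 ± 1.51 in MII against EpiC (adjusted p = 0.0349), whereas GV overlapped ESC, with a change of -1.18 ± 1.28 (adjusted p = 0.437). All 3 genes stood higher in replicate 2 of the cultured cells. Under limma on log2(TPM + 1) the MII against EpiC calls of Hist1h1d and Hist1h1b were lost (adjusted p = 0.0902 and 0.0828). The GV against ESC call of Hist1h1b was lost there too (adjusted p = 0.2125). Without EpiC replicate 2 the Hist1h1d change was -1.07 (adjusted p = 0.528) and that of Hist1h1b had an adjusted p of 0.0549, and without MII replicate 2 the adjusted p was 0.0603 for Hist1h1e, 0.0776 for Hist1h1b and 0.195 for Hist1h1d. The GV against ESC call of Hist1h1b was lost without GV replicate 1, GV replicate 2 or ESC replicate 2, at an adjusted p of 0.144, 0.0839 and 0.186. Hist1h1t, the testis linker histone, reached at most 0.168 TPM and was not tested. The oocyte linker histone H1foo, which lies outside the clusters, had 10480 and 17230 TPM in MII and 4175 and 7095 TPM in GV. It had 0 and 0.0579 TPM in EpiC, and 0 and 0.0648 TPM in ESC. The summed replication-dependent H1 genes had 7.28 to 20.7 TPM in the oocyte libraries. Most clustered messages lack a poly(A) tail, and the part of this in the gap was not tested.

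Some genes of the Hist2 cluster had a higher level in GV than in ESC without passing the test, and others had a lower level. Hist2h2aa1, an H2A gene of the cluster on chromosome 3, had 0 and 0 TPM in MII, 0.809 and 0.655 TPM in GV, 0 and 1.01 TPM in EpiC, and 0 and 0.161 TPM in ESC. Hist2h4, an H4 gene of the same cluster, had 0.048 and 0.0824 TPM in MII, 1.20 and 0.739 TPM in GV, 0.0601 and 0.920 TPM in EpiC, and 0.0379 and 0.601 TPM in ESC. The GV libraries exceeded the ESC libraries in both genes, and also in Hist2h3c1. In Hist2h2ac, Hist2h2bb and Hist2h2be both GV libraries were below both ESC libraries, and the other genes of the cluster overlapped. Over all 68 genes, both GV libraries were above both ESC libraries in 12 and below in 35. That share over all genes was not counted, so the 12 and 35 cannot be read as a trait of the histone genes. Hist2h2aa1 and Hist2h3c1 have no sequence of their own, so their levels are uncertain. The 6 genes left out of the tests for low counts were Hist1h1t, Hist1h2ad, Hist1h2al, Hist1h2an, Hist1h4m and Hist2h2ab, and Hist1h4m was above 0 only in MII replicate 1, at 0.102 TPM.

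The genes differed in the length of the message model. The 19 genes with models of at least 700 bases held 37.5% and 41.6% of the summed TPM in MII, 73.8% and 65.6% in GV, 32.9% and 19.6% in EpiC, and 29.4% and 17.6% in ESC. Hist1h2bc is one of these genes. The 17 genes whose models end at the stem-loop held 2.48% and 3.62% in MII, 3.88% and 5.85% in GV, 26.8% and 26.8% in EpiC, and 30.5% and 26.5% in ESC. Both oocyte groups were thus below both cultured groups in the share of these 17 genes. The 22 unmatched genes, Hist1h2bc among them, held 37.5% and 44.6% in MII, 69.99% and 67.2% in GV, and 30.4% to 33.7% in cultured cells. The 19 genes with no stem-loop in the model, Hist1h2aa among them, held 37.6% and 33.4% in MII and 12.5% and 13.8% in GV. Their share in cultured cells was 15.002% to 30.2%. Models of these 2 classes do not show a stem-loop end, so whether oocytes held fewer messages with such an end was not tested. The 10 genes whose models run past the stem-loop held 22.4% and 18.4% in MII, 13.6% and 13.2% in GV, 26.8% and 13.4% in EpiC, and 20.6% and 10.7% in ESC, and these ranges overlapped between oocytes and cultured cells.

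Promoters of these genes were searched for short motifs on both strands in the 300 bases around each RefSeq start (GRCm38.p6). CCAAT was present in 52 of 61 histone windows (85.2%) and in 37.9% of 27025 gene windows. All windows of the H1, H2A, H2B and H3 genes held it, but 3 of the 12 H4 windows (25%). TATAAA was present in 57.4% of the histone windows and 14.2% of all. The octamer ATTTGCAT was present in 13 of the 61 (21.3%) and in 1.75% of all, and the 13 were 7 of 17 H2A and 6 of 16 H2B windows. Matches of different motifs overlapped in 0 of the 61 windows. A match describes the sequence only.

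The 250 bases before the RefSeq start are shown for 2 genes that were high in oocytes and for 1 that was listed at 0 there. Capitals mark the 3 motifs named above on either strand, and each is written 5′ to 3′ on the strand of its gene. The windows are chr13:23934157-23934406 on the minus strand for Hist1h2ba, chr11:58948661-58948910 on the plus strand for Hist3h2ba and chr13:23571221-23571470 on the minus strand for Hist1h2ae.
Hist1h2ba: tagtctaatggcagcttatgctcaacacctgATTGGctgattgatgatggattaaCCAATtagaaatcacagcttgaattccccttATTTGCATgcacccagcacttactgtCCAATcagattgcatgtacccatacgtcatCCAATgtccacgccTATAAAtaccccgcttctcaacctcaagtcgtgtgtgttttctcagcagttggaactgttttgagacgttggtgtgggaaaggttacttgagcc
Hist3h2ba: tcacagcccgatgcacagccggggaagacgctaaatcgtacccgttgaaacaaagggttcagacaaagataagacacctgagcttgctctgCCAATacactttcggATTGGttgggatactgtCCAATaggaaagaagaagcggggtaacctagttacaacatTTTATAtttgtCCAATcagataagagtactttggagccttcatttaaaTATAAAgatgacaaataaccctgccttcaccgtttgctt
Hist1h2ae: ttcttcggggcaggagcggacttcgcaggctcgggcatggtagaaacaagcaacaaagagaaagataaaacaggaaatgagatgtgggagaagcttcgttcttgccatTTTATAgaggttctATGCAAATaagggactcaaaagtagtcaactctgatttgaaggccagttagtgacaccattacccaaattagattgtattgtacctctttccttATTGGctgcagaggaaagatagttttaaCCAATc
Hist1h2ba and Hist1h2aa are transcribed away from each other from chr13:23933773-23934156 and chr13:23934462-23934851, and 220 bases of their promoter windows are the same DNA. The 2 genes of this pair were both higher in oocytes, as given above, at 20.2 to 33.3 TPM for Hist1h2aa and 1.45 to 3.09 TPM for Hist1h2ba in the 4 oocyte libraries. The windows of the oocyte-high Hist1h2ba and of Hist1h2ae, listed at 0 in oocytes, both hold all 3 motifs, whereas that of Hist3h2ba holds no octamer. The H2B gene Hist1h2bg starts at chr13:23571396 on the plus strand, inside the Hist1h2ae window. A motif between 2 genes that point away from each other cannot be assigned to 1 of them here.

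The genes that act on histone messages were themselves uneven between the groups; the lists below were chosen with earlier results known and carry no test of their own. Their counts stand against the shares of all 25045 genes tested, of which 28.3% were higher and 31.3% lower in GV than in ESC, 28.5% and 39.6% in MII than in EpiC, 17.4% and 22.2% in MII than in GV, and 2.63% and 2.83% in EpiC than in ESC. The shares of the 5 lists ran from 0% to 41.2% higher and 29.4% to 58.3% lower in GV than in ESC, from 27.3% to 55.6% and 22.2% to 58.3% in MII than in EpiC, and from 33.3% to 66.7% and 0% to 45.5% in MII than in GV, so that several were near the share of all genes. In a list of 22 genes for 3′ end formation and transcription of histone genes, 5 were higher and 10 lower in GV than in ESC, 10 higher and 9 lower in MII than in EpiC, 10 higher and 9 lower in MII than in GV, and 0 higher and 1 lower in EpiC than in ESC. In EpiC against ESC an unadjusted edgeR p under 0.05 gave 0 higher and 2 lower, and DESeq2 called 0 higher and 1 lower. Slbp, the stem-loop binding protein, had 2826 and 2166 TPM in MII, 984 and 897 TPM in GV, 149 and 88.0 TPM in EpiC, and 125 and 108 TPM in ESC. It rose by 6.15 ± 0.48 in MII against EpiC (adjusted p = 1.16e-05), by 3.54 ± 0.42 in GV against ESC (adjusted p = 0.00014) and by 2.60 ± 0.40 in MII against GV (adjusted p = 0.00106). Lsm10 and Lsm11 encode the Sm-like proteins of the U7 particle. Lsm10 had 3.80 and 7.94 TPM in MII, 220 and 281 TPM in GV, 18.4 and 11.3 TPM in EpiC, and 18.7 and 13.9 TPM in ESC, and fell by 4.40 ± 0.49 in MII against GV (adjusted p = 0.000522). Lsm11 had 28.8 and 33.7 TPM in MII and 14.2 and 15.5 TPM in GV, and rose by 2.48 ± 0.34 (adjusted p = 0.000683).

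Other members of this list differed in direction. Casp8ap2, which encodes FLASH, a factor of the cleavage complex, had 211 and 95.2 TPM in MII and 13.5 and 3.81 TPM in GV, and rose by 5.24 ± 0.63 (adjusted p = 0.000549). Sympk, the scaffold of the cleavage complex, had 3.22 and 3.65 TPM in MII and 42.3 and 47.5 TPM in GV, and fell by 2.39 ± 0.34 (adjusted p = 0.000748). Npat, the coactivator of histone gene transcription in S phase, had 4.75 and 1.30 TPM in GV and 18.4 and 15.7 TPM in ESC, and fell by 2.10 ± 0.54 (adjusted p = 0.00862). Coil, the scaffold of the Cajal body, had 22.2 and 18.0 TPM in EpiC and 98.5 and 121 TPM in ESC, and fell by 2.71 ± 0.39 (adjusted p = 0.0059).

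Decay factors of histone mRNA were 9 genes. Of these, 0 were higher and 5 lower in GV than in ESC, 5 higher and 2 lower in MII than in EpiC, 6 higher and 0 lower in MII than in GV, and 0 in either direction in EpiC than in ESC. At an unadjusted edgeR p under 0.05 the decay list had 0 higher and 5 lower in GV against ESC, 6 higher and 1 lower in MII against GV, and 0 higher and 1 lower in EpiC against ESC, and DESeq2 called the same numbers. Upf1, a helicase needed for histone mRNA decay, had 262 and 478 TPM in MII and 18.7 and 57.6 TPM in GV, and rose by 4.42 ± 0.63 (adjusted p = 0.000777). Eri1, the exonuclease that binds the stem-loop, had 30.6 and 21.8 TPM in MII and 23.4 and 18.3 TPM in GV, and rose by 1.47 ± 0.32 (adjusted p = 0.006) although its TPM overlapped.

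Histone chaperones, which carry new histones to DNA, were 17 genes, with 7 higher and 5 lower in GV than in ESC, 9 higher and 4 lower in MII than in EpiC, 10 higher and 5 lower in MII than in GV, and 0 called in EpiC against ESC, where an unadjusted edgeR p under 0.05 gave 0 higher and 1 lower and DESeq2 called 0. Npm2, the oocyte nucleoplasmin, had 48.5 and 106 TPM in MII and 2603 and 3136 TPM in GV, and fell by 4.04 ± 0.73 (adjusted p = 0.00212). Asf1b, a chaperone of H3 and H4, had 314 and 367 TPM in MII and 26.5 and 23.1 TPM in EpiC, and rose by 5.26 ± 0.38 (adjusted p = 9.12e-06). Chaf1a, the large subunit of the replication-linked assembly factor CAF-1, had 234 and 278 TPM in GV and 50.1 and 41.9 TPM in ESC, and rose by 2.80 ± 0.49 (adjusted p = 0.00113).

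Of 22 genes of S phase, 1 was higher and 9 lower in GV than in ESC, 6 higher and 10 lower in MII than in EpiC, 9 higher and 10 lower in MII than in GV, and 0 called in EpiC against ESC, where 0 had an unadjusted edgeR p under 0.05 and DESeq2 called 0. Ccne1, cyclin E1, had 4.75 and 5.57 TPM in GV and 106 and 71.8 TPM in ESC, and fell by 3.71 ± 0.45 (adjusted p = 0.000157). Pcna, the replication clamp, had 262 and 238 TPM in GV and 442 and 275 TPM in ESC, with a log2 fold change of -0.13 ± 0.40 (adjusted p = 0.784).

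Histone genes outside the clusters numbered 12. Of these, 2 were higher and 7 lower in GV than in ESC, and 4 higher and 7 lower in MII than in EpiC. In MII against GV, 4 were higher and 3 lower. In EpiC against ESC, 0 were higher and 1 lower, as also at an unadjusted edgeR p under 0.05 and in DESeq2. H3f3a, which encodes the replacement histone H3.3, had 300.0 and 578 TPM in MII, 772 and 910 TPM in GV, 1153 and 541 TPM in EpiC, and 915 and 503 TPM in ESC. H3f3b, the other H3.3 gene, had 1363 and 1112 TPM in MII, 381 and 503 TPM in GV, 763 and 472 TPM in EpiC, and 498 and 502 TPM in ESC. Each H3.3 gene was thus above the summed clustered H3 genes, which reached at most 69.0 TPM, in every library. Clustered messages mostly lack a poly(A) tail, and the libraries held such RNA unevenly. The order is therefore one of library shares, and that in the cells was not tested. H2afz, the variant H2A.Z, had 26.9 and 37.3 TPM in GV and 1634 and 748 TPM in ESC, and fell by 4.81 ± 0.65 (adjusted p = 0.000293).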

How the data were processed

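Estimated counts and TPM per transcript were made by the authors; the submitters' processing notes name kallisto 0.43 and mm10. TPM in the deposited tables is each transcript's share of the library after division by its effective length. RNA was extracted with TRIzol and libraries were stranded and paired end, per the labels; poly(A) selection and the use of strand in counting are not stated. Both values were summed per gene over the 117667 listed transcripts, symbols came from the transcript names, and 73 rows gave the 68 genes (2 pseudogenes with such a symbol were left out). Total estimated counts per library are given in the opening, and low counts carry the largest relative counting error.

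Rounded counts were fitted with edgeR 4.0.16 in R 4.3.3 (filterByExpr, which left 25045 genes, TMM, 1 mean per group over all 8 libraries, 4 residual degrees of freedom, robust quasi-likelihood, glmQLFTest), with Benjamini-Hochberg adjustment over all genes at 0.05. The SE is an approximation from the fit, |log2 fold change| divided by √F. Family sums replaced the single genes in a fit of the same kind. A group with 0 counts gave a bound on the fold from a floor of 3 counts per library, which covers counting error only. The scripts were tested on simulated data. Alternatives were limma 3.58.1 on log2(TPM + 1) and log2(TPM + 0.1), DESeq2 1.42.0, other scalings and filters, a replicate block and leaving out each library. Positions and transcript sequences came from GENCODE M21, and promoters from RefSeq on GRCm38.p6, where 61 of 68 genes matched; both equal mm10 in coordinates. Full statistics are given for the 6 highest and 6 lowest called changes per comparison at a mean of at least 1 TPM, for the highest gene of each family in each group, and for genes chosen for what is known of them; Hist1h2bq, Hist2h3c2, Hist2h4, Hist1h2bj and Hist1h2bk were named after their values were seen. Members and lists were chosen with earlier results of these data known.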

Additional observations from a re-analysis of the deposited data

Results flagged for a closer look

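The change over oocyte maturation (MII against GV) differed from the change over exit from naive culture (EpiC against ESC) in 5 histone genes, by the test of that difference in edgeR's quasi-likelihood fit. The log2 difference was -2.67 ± 0.55 for Hist1h2bc (adjusted p = 0.00703), which had 18.1 ± 4.63 TPM in MII and 155 ± 16.8 TPM in GV (SD, n = 2 each). It was -3.79 ± 0.83 for Hist3h2a (adjusted p = 0.00878) and -3.06 ± 0.79 for Hist3h2ba (adjusted p = 0.0178), the neighbouring genes on chromosome 11. It was -3.97 ± 1.01 for Hist1h4i (adjusted p = 0.0172), which was lowest in MII and highest in EpiC. For Hist2h3c2 the fitted difference was -8.84 ± 2.78 (adjusted p = 0.0443), a value that depends on the prior count because both MII libraries had 0 counts. The causes were not tested.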

How the results depend on the processing

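Of the called histone genes, 3 of 6 higher and 5 of 27 lower in GV against ESC, 2 of 5 and 13 of 45 in MII against EpiC, 0 of 1 and 2 of 3 in MII against GV, 0 of 1 in EpiC against ESC, and 2 of 5 for the difference kept their call in every alternative, and none reversed. Against TMM, the median change over all genes tested moved on the log2 scale by 0.21 (MII against GV) and 0.19 (MII against EpiC) under relative log expression, and by -0.61 and -0.66 (GV against ESC -0.19) under limma on log2(TPM + 1). The cause of each change below was not tested. Under 3 counts stood 49 and 44 of the 68 genes in MII, 40 and 25 in GV, 11 and 2 in EpiC, and 18 and 4 in ESC, and no level can be read from them; the part of depth was not tested across groups, where the deepest library, MII replicate 2, had 44 such genes.

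Under limma on log2(TPM + 1), the number of histone genes lower in GV against ESC was 15, MII against GV had 0 higher and 7 lower, and EpiC against ESC had 3 higher. All genes higher numbered 4703 in MII against EpiC, 2408 in MII against GV and 1287 in EpiC against ESC, where 1538 were lower. Its family sums were -0.72 (H1) and -0.26 (H3) for MII against GV, -1.46 (H2B) and -2.72 (H3) for MII against EpiC, and -1.28 (H3) for the difference. Under limma on log2(TPM + 0.1), MII against GV had 0 histone genes higher and 11 lower, and 2275 and 9107 of all genes; EpiC against ESC had 2 histone genes higher and 1151 and 1279 of all genes; the difference had 10 lower.

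Under DESeq2, MII against GV had 7 histone genes lower, the difference 9 lower, and EpiC against ESC 3 higher with 1519 and 1416 of all genes; H1 was 0.067 and H3 0.27 in MII against EpiC, and H3 1.78 in MII against GV. Relative log expression gave 0.067 for H1 and 0.27 for H3 in MII against EpiC. With no count filter, MII against GV had 2 histone genes higher and 11 lower, the difference 14 lower, and EpiC against ESC 1303 and 1277 of all genes; H1 was -0.078 and H4 -1.71 in MII against GV, H3 0.099 in MII against EpiC, and H4 0.20 in GV against ESC. In fits of the compared groups alone, MII against GV had 10 histone genes lower with H3 at 1.63 and H4 at -1.41, EpiC against ESC had 0 higher and 355 of all genes, and H2B was -0.0041 in MII against EpiC. With a length offset, H2A was 0.32 and H2B -1.47 in MII against GV, H2B -0.32 in MII against EpiC, and the differences were -2.64 (H2B), -0.39 (H3) and -2.55 (H4). With protein-coding rows only, H2B was -0.012 in MII against EpiC and -1.65 in MII against GV, and with the scale from protein-coding genes without Gm42418 and mitochondrial genes H2B was -1.63 in MII against GV.

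Replicate numbers share only a number, and same-numbered deviations correlated at 0.474 (MII with GV), 0.732 (EpiC with ESC) and 0.018 to 0.137 otherwise. With the replicate block, MII against GV had 8 histone genes lower and the difference 11, H1 was 0.078 and H3 0.21 in MII against EpiC, and H4 was 0.15 in GV against ESC; it changed the side of the threshold of no other count by more than 1.5 times.

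Leaving out 1 library at a time, the histone genes lower in GV against ESC numbered 7 to 33 and all genes lower 4922 to 8280. In MII against EpiC the histone genes higher numbered 3 to 6 and lower 17 to 51. In MII against GV they numbered 0 to 1 higher and 2 to 6 lower, in EpiC against ESC 0 to 1 higher, with 135 to 572 of all genes higher and 274 to 684 lower, and for the difference 2 to 11 lower. The family sums ranged from -0.82 to 0.57 (H3) and -0.66 to 0.95 (H4) in GV against ESC; from -0.84 to 1.16 (H1), -1.10 to 0.99 (H2A), -0.31 to 1.19 (H2B) and -0.73 to 1.45 (H3) in MII against EpiC; from -0.35 to 0.63 (H1) and -1.90 to -1.39 (H2B) in MII against GV; from -0.38 to 1.69 (H1), -0.35 to 1.82 (H2A) and -0.23 to 2.11 (H3) in EpiC against ESC; and from -1.56 to 0.52 (H1), -3.41 to -1.78 (H2B), -0.59 to 1.75 (H3) and -4.17 to -2.07 (H4) for the difference. With 1 library left in a group, that library was assumed to vary like the other groups.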
